A study of Mus musculus with 3 samples.

Results

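Complement is a set of plasma proteins that are cleaved in a chain when they meet a microbe or an immune complex, together with the receptors that read the fragments and the membrane proteins that protect host cells. The 10 genes described here are the anaphylatoxin receptors C3ar1 and C5ar1, the central component C3, the alternative pathway proteins Cfb (factor B, which becomes part of the convertase) and Cfp (properdin, which stabilises that convertase), Cd93 (a transmembrane lectin first described in human cells as a C1q receptor), the membrane regulators Cd55 (which speeds the decay of convertases) and Cd59a (which blocks the membrane attack complex), and the C1q chains C1qa and C1qb, which start the classical pathway. They were taken by gene symbol, as 10 of 19059 genes in the count matrices, and their levels and the share of cells with at least 1 unique molecular identifier (UMI, a counted molecule) were followed across blood cell classes. Most plasma C3 comes from the liver, C5a attracts neutrophils, C3a acts on basophils and mast cells, and C1q is made mainly by tissue macrophages.

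The samples were leukocytes from the peripheral blood of untreated male mice, in 3 libraries (1, 2 and 3) from mice aged 8, 9 and 10 weeks, with no strain or allele named in the labels and library names that refer to lanes. Red cells were lysed, the rest stained with DAPI and Draq5 for a sort, then fixed and profiled with a multiplexed droplet kit for fixed cells. Each age was 1 library, so that effects of age and of library cannot be told apart. The labels do not say whether the libraries came from separate animals. The p-values measure how differences between classes vary over these libraries, which may be technical. Shifts that all classes of a library share are taken out by the fit. The spread is estimated over all classes of a fit and with the help of other genes, and not from the 2 classes compared alone. The libraries held 11105, 5736 and 7029 barcodes with 45718031, 19591648 and 23443660 UMIs. Between 48 and 101 barcodes were shared by a pair of libraries. The median cell had 0, 41 and 5 haemoglobin UMIs in libraries 1, 2 and 3, and 3.61%, 29.8% and 17.9% of barcodes had a platelet marker UMI.

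Cells were named only from marker counts, which held none of the complement genes, and every name is therefore written as "-like". Over the libraries there were 2647 neutrophil-like cells, 597 Ly6c-low-like and 532 Ly6c-high-like monocyte-like cells (the patrolling and the classical subset), 78 basophil-like, 42 conventional dendritic-like, 9790 B-like, 2443 CD4 T-like, 3003 CD8 T-like, 895 NK-like, 421 platelet-like and 860 erythroid-like barcodes. A further 1203 barcodes with markers of several lineages were left out as possible doublets. Also left out of the named classes were 754 T-type barcodes with neither or both of the CD4 and CD8 marker lists. The same holds for 109 monocyte-type barcodes called for neither subset and 496 barcodes that reached no class. All 8 basophil markers were detected in the basophil-like class, with a summed level of 10386 to 12419 CPM (counts scaled to the same total in every sum) over the libraries, against 484 to 546 CPM in neutrophil-like cells. Eosinophil markers summed to 234 to 447 CPM in the basophil-like class, where 4 of 6 (Epx, Prg2, Ear6 and Il5ra) were at 0. In the same class neutrophil markers summed to 1235 to 1394 CPM, with 5 of 10 at 0 (Ly6g, Csf3r, Mmp8, Il1r2 and Clec4d), platelet markers to 893 to 1211 CPM, with 4 of 9 at 0 (Pf4, Gp6, Treml1 and Tubb1), and Ly6c-high monocyte markers to 315 to 547 CPM, with 3 of 7 at 0. The part of these markers in the complement levels of the basophil-like class was not tested. The median cell had 8150 to 9328 UMIs in the Ly6c-high-like class, 4363 to 4893 in the Ly6c-low-like, 2654 to 2809 in the neutrophil-like and 3080 to 3222 in the B-like class, so shares of cells with a UMI were also computed after thinning each cell to 2000 UMIs. Levels are CPM of the summed counts of a class in a library and are compared within a gene only, since probe-based counts are not scaled by length.

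The promoters of the receptors for C3a and C5a and of C3, the protein C3a is cut from, are shown to set the data beside the sequence at their start sites: C3ar1, whose UMIs lay mostly in basophil-like cells, C5ar1 and its neighbour C5ar2, whose UMIs lay mostly in neutrophil-like cells, and C3, whose level was highest in Ly6c-high-like cells, which held 49.7% of its UMIs. Each is 300 bases from RefSeq on GRCm38.p6 (250 before to 50 after the start), written on the gene's own minus strand. C3ar1 lies at chr6:122856108-122856407, C5ar1 at chr7:16259289-16259588, C5ar2 at chr7:16244105-16244404 and C3 at chr17:57228087-57228386. Most of the C5ar1 window lies inside the gene as GENCODE places it (chr7:16246743-16259540), whose start is further upstream than the RefSeq start used. Capitals mark matches on either strand to AGATAA (bound by GATA factors), TTGCNNCA (a C/EBP-type site) and GAGGAA (a PU.1-type core).
C3ar1: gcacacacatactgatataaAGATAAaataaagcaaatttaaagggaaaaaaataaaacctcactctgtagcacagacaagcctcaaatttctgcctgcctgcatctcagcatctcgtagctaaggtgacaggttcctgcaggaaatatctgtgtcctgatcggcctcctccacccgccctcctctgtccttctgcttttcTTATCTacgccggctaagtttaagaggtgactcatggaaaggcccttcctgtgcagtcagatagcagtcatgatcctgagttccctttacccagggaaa
C5ar1: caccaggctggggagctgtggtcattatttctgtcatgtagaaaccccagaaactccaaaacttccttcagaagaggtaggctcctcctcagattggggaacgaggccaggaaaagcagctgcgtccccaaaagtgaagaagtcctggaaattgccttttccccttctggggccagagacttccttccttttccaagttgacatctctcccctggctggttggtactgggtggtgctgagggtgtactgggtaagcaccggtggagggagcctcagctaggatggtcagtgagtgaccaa
C5ar2: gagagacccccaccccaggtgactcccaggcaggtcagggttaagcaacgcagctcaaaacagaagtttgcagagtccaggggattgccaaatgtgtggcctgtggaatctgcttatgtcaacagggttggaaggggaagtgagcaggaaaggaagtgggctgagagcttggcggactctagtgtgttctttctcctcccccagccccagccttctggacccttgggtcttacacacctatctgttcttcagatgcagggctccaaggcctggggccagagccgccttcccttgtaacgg
C3: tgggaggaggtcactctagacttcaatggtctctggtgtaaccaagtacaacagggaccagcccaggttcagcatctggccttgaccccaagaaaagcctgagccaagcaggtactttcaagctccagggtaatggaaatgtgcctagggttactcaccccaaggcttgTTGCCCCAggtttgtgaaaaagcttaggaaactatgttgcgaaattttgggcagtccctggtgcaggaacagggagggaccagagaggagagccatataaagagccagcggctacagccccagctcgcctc
The C3ar1 window held AGATAA once on each strand, and the C3 window held TTGCNNCA once on the forward strand, without overlap between motifs. None of the 3 motifs was in the windows of C5ar1 and C5ar2. Of 32851 promoters of the same length, 11.2% held AGATAA, 11.4% held TTGCNNCA and 28.3% held GAGGAA. Promoters were found for 7 of the 10 genes, and among those GAGGAA was in the windows of Cfp, Cd59a and C1qb. A match is a description of these letters and not a binding site.

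**Figure D1:**
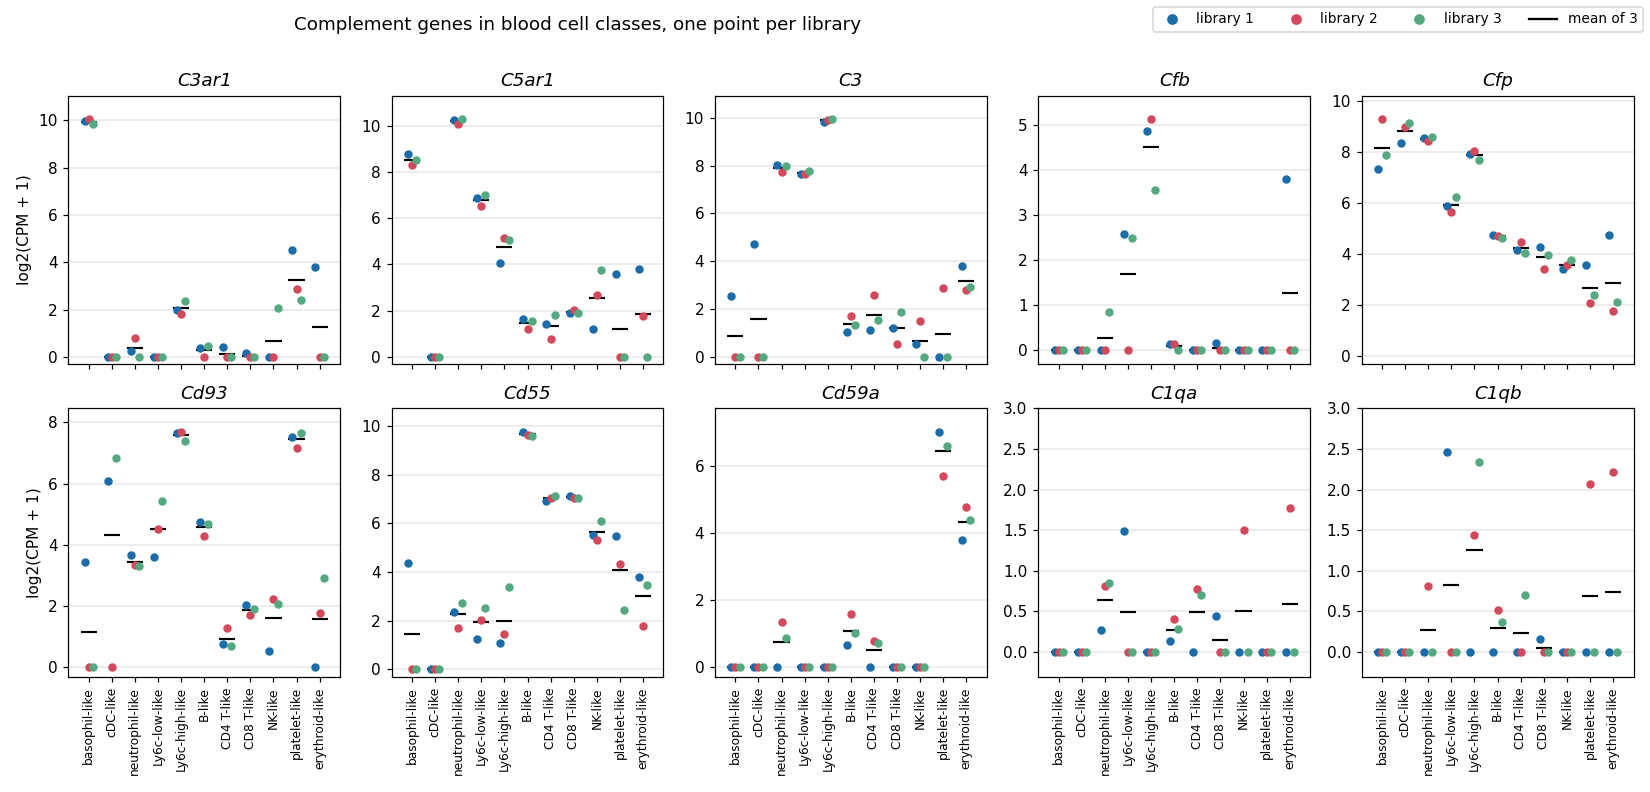
Levels of the 10 complement genes in 11 blood cell classes, on the y axis as log2(CPM + 1) of summed counts, with 1 point per library and a black line at the mean of 3 libraries; cDC-like is the conventional dendritic-like class. C3ar1 stood at 919 to 1054 CPM in the basophil-like class, C5ar1 was highest in the neutrophil-like class, C3 in the Ly6c-high-like class and Cd55 in the B-like class, and C1qa and C1qb stayed near 0.

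C3ar1, the receptor for C3a (chr6:122847138-122856161 on GRCm38, from the GENCODE annotation, as for the genes below), was read almost only in basophil-like cells among the named classes. Its level there was 991 CPM in library 1, 1054 in library 2 and 919 in library 3, and 96.4%, 100% and 71.4% of basophil-like cells had a UMI. The basophil-like level was alike in the 3 libraries although they held 56, 8 and 14 such cells. In Ly6c-high-like cells C3ar1 stood at 2.94, 2.57 and 4.07 CPM, and in neutrophil-like cells at a mean of 0.322 CPM. The basophil-like class was above the Ly6c-high-like class by 8.12 on the log2 scale (SE 0.36, edgeR quasi-likelihood test, adjusted p = 1.92e-36, higher in 3 of 3 libraries), in a fit that also held the classes with under 20 cells in a library and in which 33.0% of genes passed for this comparison. Against neutrophil-like cells, with 2 C3ar1 UMIs, the ratio of pooled levels was 3678 (exact 95% interval 1008 to 30528, counting error only). Ly6c-low-like cells had 0 C3ar1 UMIs, so the basophil-like level was at least 978-fold higher, taking a floor of 3 counts over the group.

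Of 348 C3ar1 UMIs in all barcodes, 264 (75.9%) were in basophil-like cells, 47 in barcodes with markers of several lineages and 14 in Ly6c-high-like cells. All 12 Ly6c-high-like cells with a C3ar1 UMI lacked every basophil marker. Among the barcodes with several lineages, 15 had a C3ar1 UMI, and 9 of these had 3 or more basophil markers. Thinned to 2000 UMIs, 88.9% ± 10.2 of basophil-like cells (SD, n = 3) still had a C3ar1 UMI. The platelet-like class had 5 C3ar1 UMIs in 421 barcodes and the B-like class 8 in 9790 cells.

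C5ar1, the main receptor for C5a (chr7:16246743-16259540), was highest in neutrophil-like cells. It stood at 1209, 1083 and 1232 CPM in neutrophil-like cells, at 115, 90.5 and 126 CPM in Ly6c-low-like cells and at 15.8, 34.2 and 32.6 CPM in Ly6c-high-like cells, so that no library of one class reached the range of another. Basophil-like cells, in which neutrophil markers were also read, lay between neutrophil-like and Ly6c-low-like cells, at 432, 312 and 368 CPM. A C5ar1 UMI was found in 92.8% ± 2.1 of neutrophil-like cells, 35.1% ± 2.8 of Ly6c-low-like cells and 17.6% ± 6.3 of Ly6c-high-like cells (SD, n = 3 each), against 0.572% ± 0.12 of B-like cells. At 2000 UMIs per cell these shares were 88.0% in neutrophil-like, 17.2% in Ly6c-low-like and 4.49% in Ly6c-high-like cells. The median neutrophil-like cell had 3 C5ar1 UMIs and the highest had 14.

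In the order of C5ar1 levels, neutrophil-like cells exceeded Ly6c-low-like cells by 4.28 on the log2 scale (SE 0.13, edgeR, adjusted p = 1.28e-47), where 69.4% of genes passed, and Ly6c-high-like cells exceeded NK-like cells by 3.15 (SE 0.43, edgeR, adjusted p = 5.28e-10), where 59.7% passed. From NK-like cells downwards (6.52 CPM to 1.64 CPM in CD4 T-like cells) no neighbouring classes differed beyond their spread. The basophil-like class was below the neutrophil-like class by a log2 difference of -2.61 (SE 0.17, edgeR, adjusted p = 3.19e-23, lower in 3 of 3 libraries), where 41.8% of genes passed. Conventional dendritic-like cells had 0 C5ar1 UMIs, which puts the neutrophil-like level at least 144-fold higher by the 3-count floor. The second C5a receptor C5ar2, which does not couple to G proteins, lies next to C5ar1 on chromosome 7 and showed the same order, with 346 ± 17.2 CPM in neutrophil-like, 131 ± 25.6 in basophil-like, 21.0 ± 6.34 in Ly6c-low-like and 10.5 ± 6.43 CPM in Ly6c-high-like cells (SD, n = 3 each). Within neutrophil-like cells, 1397 cells had UMIs of both receptors, where 1391 would be met if the receptors were drawn independently within each library. Since 2484 of the 2647 cells had C5ar1, these numbers had little room to differ.

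C3 (chr17:57203970-57228136) was highest in Ly6c-high-like cells. Its level was 257, 212 and 255 CPM in neutrophil-like cells and 200.2, 199.7 and 216.7 CPM in Ly6c-low-like cells, against 908, 967 and 979 CPM in Ly6c-high-like cells, with no overlap between the Ly6c-high-like class and either of the others. A C3 UMI was found in 34.5% ± 3.4 of neutrophil-like cells and 45.0% ± 5.4 of Ly6c-low-like cells, against 95.4% ± 2.2 of Ly6c-high-like cells (SD, n = 3 each). At 2000 UMIs per cell the shares were 29.6% in neutrophil-like and 28.7% in Ly6c-low-like cells, against 73.7% in Ly6c-high-like cells. The median Ly6c-high-like cell had 7 C3 UMIs and 35.9% of these cells had 10 or more. Whether neutrophil-like and Ly6c-low-like cells differed depended on the scaling: neutrophil-like cells were higher by 1.17 on the log2 scale with TMM scaling (SE 0.12, edgeR, adjusted p = 2.17e-15) and by 0.25 with plain totals (SE 0.12, edgeR, adjusted p = 0.0529). Lymphocyte classes held 0.757 to 2.68 CPM of C3, and 0.280% to 0.945% of their cells had a UMI.

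**Figure D2:**
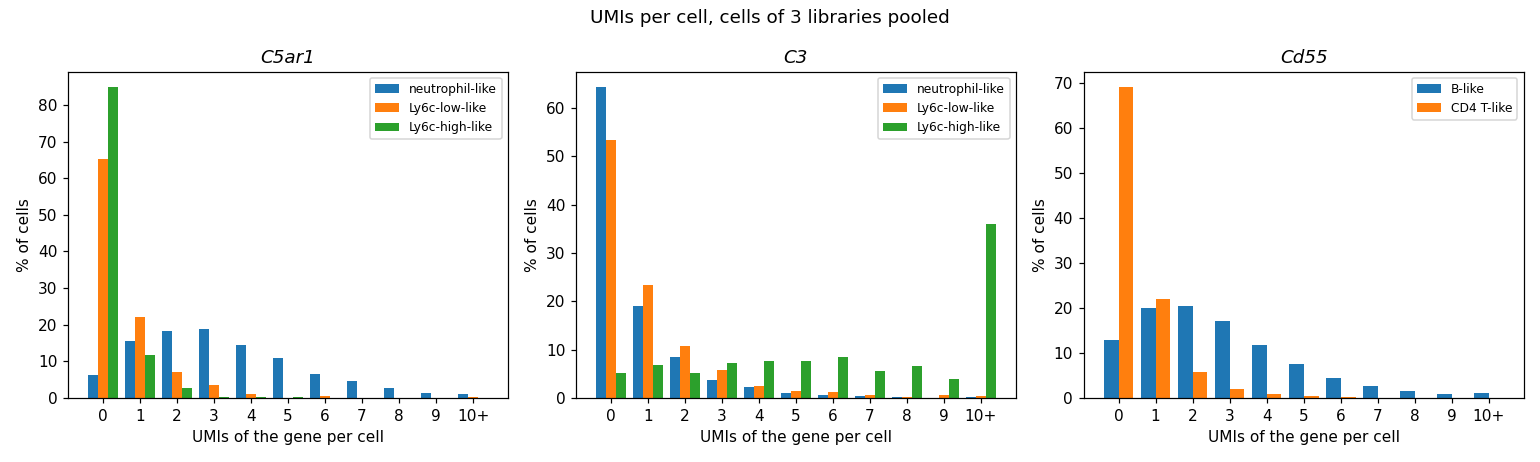
UMIs of C5ar1, C3 and Cd55 per cell on the x axis and the share of cells of a class on the y axis, with cells of the 3 libraries pooled and 10 or more UMIs in the last bin. No C5ar1 UMI was found in 6.16% of neutrophil-like, 65.3% of Ly6c-low-like and 84.8% of Ly6c-high-like cells, 35.9% of Ly6c-high-like cells had 10 or more C3 UMIs, and 12.9% of B-like cells had no Cd55 UMI, against 68.9% of CD4 T-like cells.

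The alternative pathway genes Cfb (chr17:34856374-34862518) and Cfp (chrX:20925454-20931555) were distributed differently from each other. Cfb stood at 4.95, 0 and 4.66 CPM in Ly6c-low-like cells, against 28.0, 34.2 and 10.9 CPM in Ly6c-high-like cells, and library 3 was the lowest of the Ly6c-high-like class. Only 59 of 532 Ly6c-high-like cells had a Cfb UMI, and 37 of them had a single one. The tenth of cells with the most Cfb held 95.2% of its UMIs, a share that follows from so few cells having any. One cell had 14 Cfb UMIs. Of the 59 cells with Cfb, 56 had C3 as well, where 55.9 would be met under independence within each library. Since 505 of the 532 cells had C3, these numbers had little room to differ. Neutrophil-like cells had 1 Cfb UMI, against 124 in Ly6c-high-like cells, a ratio of pooled levels of 0.00500 (exact 95% interval 0.000126 to 0.0284, counting error only).

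Cfp was found in all phagocyte classes and, at a lower level, in lymphocytes. Its level was 371, 350.5 and 387 CPM in neutrophil-like cells, 58.5, 49.9 and 74.5 CPM in Ly6c-low-like cells and 244, 264 and 208 CPM in Ly6c-high-like cells. Conventional dendritic-like cells stood at 328, 508 and 565 CPM and basophil-like cells at 162, 625 and 236 CPM, both with wide spreads from few cells. In the dendritic-like class the conventional dendritic markers summed to 2080 to 2485 CPM, beside 676 to 2259 CPM of plasmacytoid dendritic markers (0 of 6 at 0), 562 to 1882 CPM of monocyte markers (0 of 6 at 0) and 1216 to 1651 CPM of Ly6c-high monocyte markers (3 of 7 at 0, Chil3, Vcan and Mgst1); their part in the Cfp level was not tested. The dendritic-like class was above the Ly6c-high-like class by 0.53 on the log2 scale (SE 0.17, edgeR, adjusted p = 0.0176), where 21.5% of genes passed, and below the neutrophil-like class, at a log2 difference of -1.01 (SE 0.16, edgeR, adjusted p = 2.80e-08), where 58.1% passed. In mean CPM the dendritic-like class was the higher of that pair (467 against 370), although in library 1 it was the lower (328 against 371). The fitted difference used TMM scaling (edgeR's trimmed mean of M-values, which scales libraries on most genes). No fit with plain totals held the dendritic-like class, so the part of the scaling in this sign was not tested. A Cfp UMI was found in 54.7% ± 2.0 of neutrophil-like cells, against 65.4% ± 6.0 of Ly6c-high-like cells, but at 2000 UMIs per cell in 47.1% ± 2.5 of neutrophil-like, against 30.3% ± 3.3 of Ly6c-high-like cells (SD, n = 3 each). The order of the shares before thinning was therefore the reverse of the order of the levels. B-like cells had 25.0 ± 0.85 CPM and CD4 T-like cells 17.9 ± 2.96 CPM, and neighbouring classes from CD4 T-like through CD8 T-like to NK-like cells did not differ beyond their spread.

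**Figure D3:**
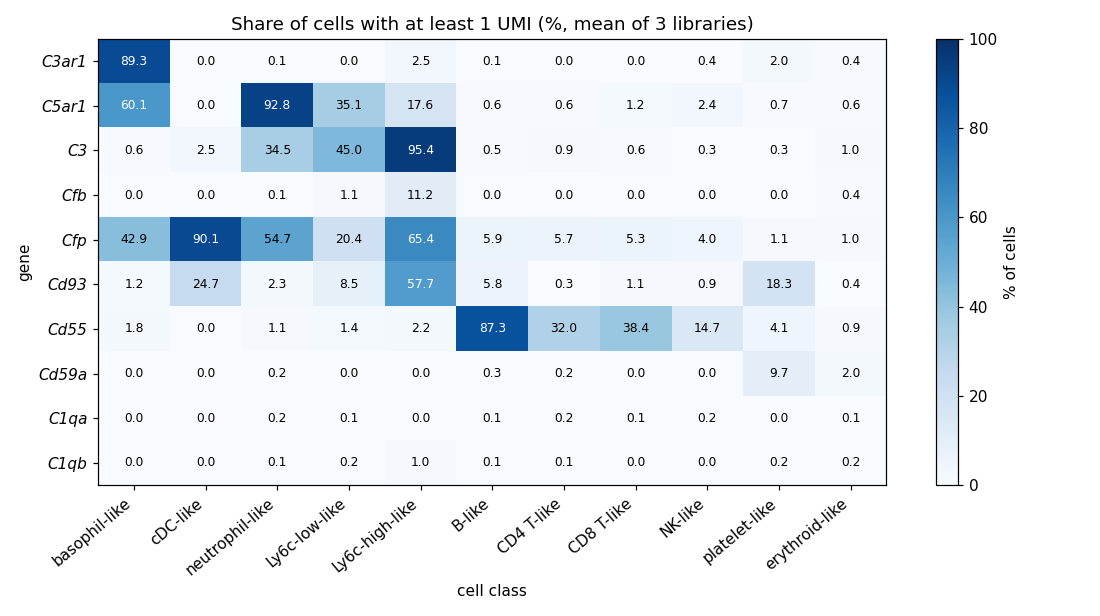
Share of cells with at least 1 UMI of each complement gene (rows) in each blood cell class (columns), as the mean of 3 libraries in percent, before thinning; darker blue is a higher share. The highest values were 95.4% for C3 in Ly6c-high-like, 92.8% for C5ar1 in neutrophil-like, 90.1% for Cfp in conventional dendritic-like, 89.3% for C3ar1 in basophil-like and 87.3% for Cd55 in B-like cells.

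Cd93 (chr2:148436640-148443563) had separate high points in Ly6c-high-like cells and in platelet-like barcodes. It stood at 11.2, 21.8 and 41.9 CPM in Ly6c-low-like cells, against 201, 206 and 168 CPM in Ly6c-high-like cells, and at 185, 141 and 200 CPM in platelet-like barcodes. The 3 Ly6c-low-like values were all below the Ly6c-high-like range, with the lowest in library 1. Conventional dendritic-like cells stood at 67.2, 0 and 113 CPM of Cd93 in libraries 1, 2 and 3, from 27, 6 and 9 cells. The order of the Ly6c-high-like and platelet-like classes depended on the scaling, with a log2 difference (Ly6c-high-like over platelet-like) of -1.25 under TMM (SE 0.23, edgeR, adjusted p = 9.61e-06) and 0.18 with plain totals (SE 0.20, edgeR, adjusted p = 0.415), where 55.4% of genes passed under TMM. Platelet-like barcodes were above Ly6c-low-like cells under both, by 4.73 and 3.34 on the log2 scale, where 54.3% of genes passed under TMM.

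In B-like cells, where Cd93 is a known marker of immature stages in mice, 572 of 9790 cells had a Cd93 UMI. The level was 26.0, 18.4 and 24.9 CPM in B-like cells, against 0.685, 1.42 and 0.627 CPM in CD4 T-like cells, and the classes did not overlap. B-like cells with a Cd93 UMI held 85.1 ± 12.4 CPM of Cr2 (complement receptor type 2, which marks mature B cells), against 142 ± 19.8 CPM in B-like cells without one, and 647 ± 45.7 CPM of Cd55, against 822 ± 56.6 CPM (SD, n = 3 libraries each). Cfp ran the other way, at 57.4 ± 7.31 CPM in B-like cells with a Cd93 UMI, against 22.4 ± 0.94 CPM in those without one. Beside these differences, which were not tested, the monocyte markers summed to 54.0 ± 30.8 CPM in B-like cells with a Cd93 UMI, against 36.4 ± 2.16 CPM without, and the platelet markers to 761 ± 482 CPM, against 182 ± 146 CPM; their part in the result was not tested.

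The membrane regulators had different high points, Cd55 in B-like cells and Cd59a in platelet-like and erythroid-like barcodes. Cd55 (chr1:130439027-130462744) stood at 869, 793 and 766 CPM in B-like cells, against 119, 131 and 140.5 CPM in CD4 T-like cells, and at 138, 131 and 131 CPM in CD8 T-like cells. The B-like range lay wholly above the T-like ranges, and a Cd55 UMI was found in 87.3% ± 2.4 of B-like cells, against 32.0% ± 1.8 of CD4 T-like cells (SD, n = 3 each). B-like cells exceeded CD8 T-like cells by 2.74 on the log2 scale (SE 0.10, edgeR, adjusted p = 1.97e-44), where 58.9% of genes passed. CD8 T-like and CD4 T-like cells did not differ beyond their spread (0.10, SE 0.11, edgeR, adjusted p = 0.621), where 17.5% passed, and CD4 T-like cells exceeded NK-like cells by 1.44 (SE 0.16, edgeR, adjusted p = 1.07e-12), where 47.6% passed. Neutrophil-like, Ly6c-low-like and Ly6c-high-like cells held 3.99, 3.04 and 4.11 CPM of Cd55, on 30, 6 and 12 UMIs. Platelet-like barcodes held 43.5, 19.2 and 4.35 CPM of Cd55 in libraries 1, 2 and 3, and erythroid-like barcodes a mean of 8.41 CPM. The log2 difference of Cd55, NK-like over platelet-like, was -0.37 with TMM scaling (SE 0.53, edgeR, adjusted p = 0.567). With plain totals it was 1.39 (SE 0.47, edgeR, adjusted p = 0.00676). The paralog Cd55b lies beside Cd55 on chromosome 1 and had 152 UMIs in all barcodes, 127 of them in B-like cells; how the probes part the copies is not given in the sources used here.

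Cd59a (chr2:104095801-104115354) was sparse, with 131 UMIs in all barcodes. It stood at 130, 51.2 and 95.6 CPM in platelet-like barcodes and at 12.9, 26.6 and 19.9 CPM in erythroid-like barcodes, so that the classes did not overlap. The ratio of pooled levels of platelet-like over erythroid-like barcodes was 3.28 (exact 95% interval 2.04 to 5.38, counting error only), and the fit gave a log2 difference of 1.92 with plain totals (SE 0.53, edgeR, adjusted p = 0.00289) but -0.25 with TMM scaling (SE 0.47, edgeR, adjusted p = 0.801), under which 22.1% of genes passed. B-like cells had 38 Cd59a UMIs in 9790 cells. Ly6c-low-like, Ly6c-high-like, CD8 T-like and NK-like cells had 0, and against these the pooled platelet-like level was at least 78.1-fold, 121-fold, 337-fold and 82.7-fold higher by the 3-count floor. The paralog Cd59b, beside Cd59a on chromosome 2, had 19.9 ± 11.7 CPM in platelet-like barcodes (SD, n = 3). Platelet-like and erythroid-like barcodes had a median of 986 to 1427 and 900 to 1471 UMIs. Haemoglobin and other erythroid markers summed to 18351 to 361590 CPM in the platelet-like class and to 713755 to 797584 CPM in the erythroid-like class. The part of these markers in the Cd59a levels, in their ratio and in the lack of overlap was not tested.

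C1qa (chr4:136895917-136898803) and C1qb (chr4:136880129-136886187) were close to undetected in blood. C1qa had 23 UMIs in 20 barcodes and C1qb 34 UMIs in 23 barcodes, of 23870 barcodes in all. With C1qc, the third chain, 45 barcodes (0.189%) had a C1q UMI, and 35 of these had a single one. A single barcode, a Ly6c-low-like cell of library 1, held all 3 chains with 4 C1qa, 9 C1qb and 3 C1qc UMIs and also 2 of the 7 tissue macrophage markers. The other 6 barcodes with 2 chains had no tissue macrophage marker and belonged to B-like (3), CD4 T-like, neutrophil-like and erythroid-like classes. Without that Ly6c-low-like cell, no class held more than 8 UMIs of either gene.

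**Figure D4:**
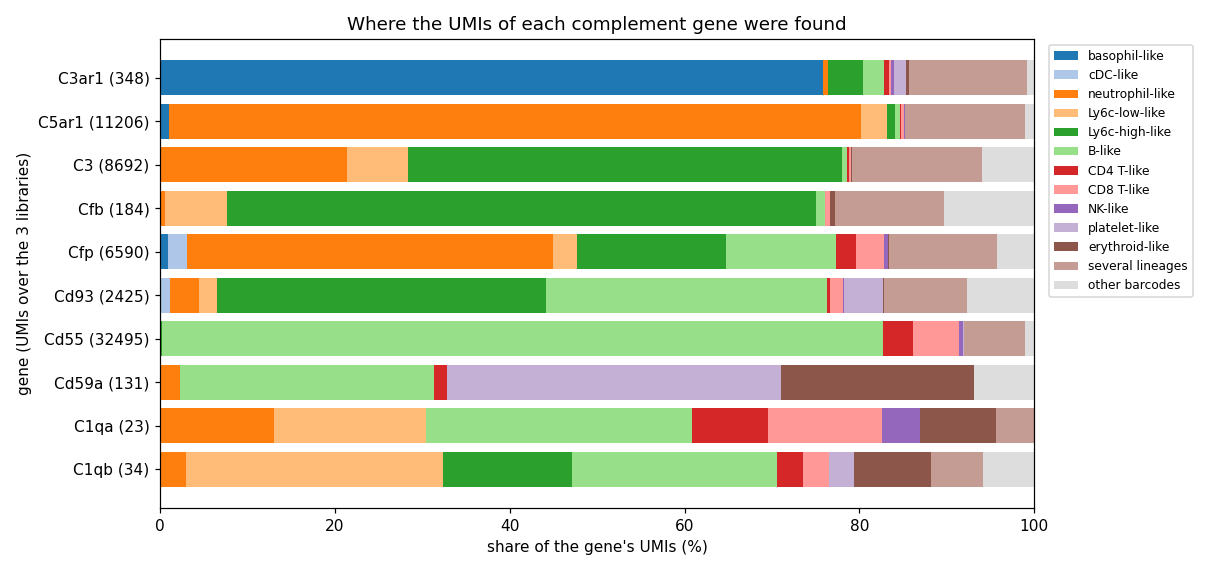
Where the UMIs of each complement gene were found, as the share of the gene's UMIs (x axis, percent) in each blood cell class, with the gene's UMIs over the 3 libraries in brackets; "several lineages" are barcodes left out of the classes as possible doublets. Basophil-like cells held 75.9% of C3ar1 UMIs although they were 78 of 23870 barcodes.

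In the comparison of neutrophil-like with Ly6c-high-like cells, the main circulating phagocytes, 72.4% of 10356 genes passed an adjusted p of 0.05 (34.8% higher and 37.6% lower), so a passing gene is the rule here. Of the 10 complement genes, 7 were tested, since C3ar1, C1qa and C1qb did not pass the filter on low counts; 3 were higher, 3 lower and 1 did not pass. The receptor C5ar1 was higher by 6.54 (log2, SE 0.14, edgeR, adjusted p = 5.18e-57) and Cfp by 1.56 (SE 0.10, edgeR, adjusted p = 2.98e-26). C3 fell by 1.03 (SE 0.10, edgeR, adjusted p = 7.15e-17), Cd93 fell by 3.26 (SE 0.20, edgeR, adjusted p = 8.84e-19), and Cfb was the third lower gene. These directions held in 3 of 3 libraries. Cd55 was the third higher gene (1.52, SE 0.52, edgeR, adjusted p = 0.00688), but its mean CPM was 3.99 in neutrophil-like and 4.11 in Ly6c-high-like cells, and it did not pass with plain totals, with RLE factors, with DESeq2 or without replicate 1. The median of all genes was -0.03 under TMM, -0.54 with RLE factors and -0.93 with plain totals, and with plain totals the same contrast had 1681 higher and 6393 lower genes. C5ar1, Cfp, C3 and Cd93 kept their directions with plain totals, at 5.61, 0.62, -1.96 and -4.20, and without replicate 1 C5ar1 was at 5.91.

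Of the 40 other complement genes, 12 were tested in that comparison, and 7 were higher and 3 lower, beside 34.8% and 37.6% of all genes. Their median under TMM was 1.58, against -0.03 for all genes, which moved to -0.93 with plain totals. Cd59b, 1 of the 12, had 0 UMIs in both classes and could not pass. Higher were C5ar2 (6.10, SE 0.16), Cd46 (2.63, SE 0.27), which regulates C3b and C4b, the murine C3b regulator Cr1l (1.36, SE 0.17), Cr2 and the chains Itgam (1.61, SE 0.11), Itgax (5.52, SE 0.26) and Itgb2 (1.55, SE 0.18) of complement receptors 3 and 4. The call of Cr2 rested on 15 UMIs in neutrophil-like and 3 in Ly6c-high-like cells and was lost in 7 of 14 alternatives, among them those without replicate 2 (edgeR, adjusted p = 0.228) and without replicate 3 (edgeR, adjusted p = 0.0874). The lower genes included the C1q-binding protein C1qbp (-4.27, SE 0.44) and calreticulin Calr (-0.64, SE 0.14). With plain totals all of the higher and lower genes named here but Cr2 passed in the same direction, with Cr1l at 0.44 and Itgb2 at 0.61. Itgam stood at 1028 ± 38.8 CPM in neutrophil-like and 648 ± 45.4 CPM in Ly6c-high-like cells (SD, n = 3 each).

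**Figure D5:**
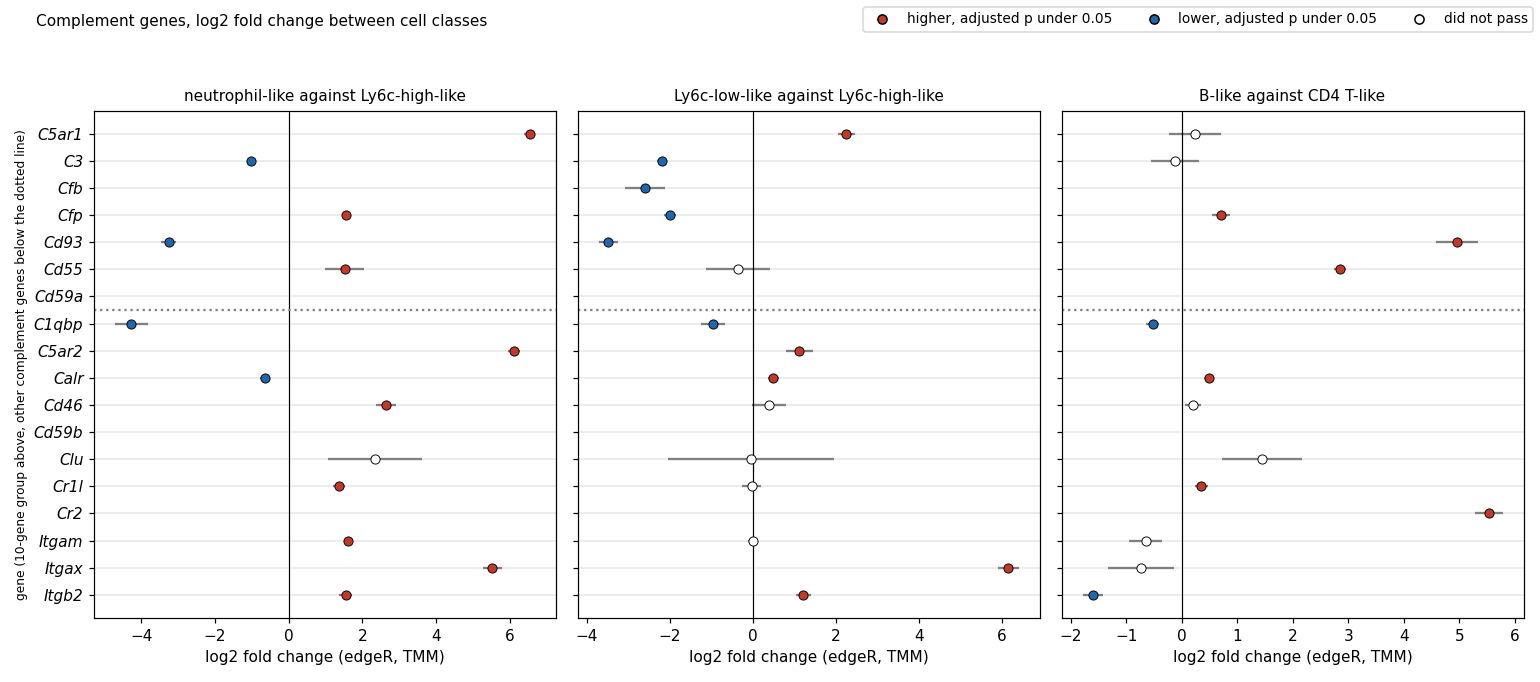
Log2 fold change (x axis, edgeR with TMM scaling) of tested complement genes (rows) in 3 comparisons of cell classes, with horizontal bars of 1 SE; red was higher and blue lower in the class named first, white did not pass, and genes with 3 or fewer UMIs in either class are not drawn. C5ar1 was higher by 6.54 in neutrophil-like cells, Cd93 was lower, at -3.48, in Ly6c-low-like cells, each against Ly6c-high-like cells, and Cd93 was higher by 4.95 in B-like cells against CD4 T-like cells.

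Ly6c-low-like cells differed from Ly6c-high-like cells at 32.9% of 10356 genes (14.9% higher and 18.0% lower). Of the 7 complement genes tested, 1 was higher, 4 were lower and 2 did not pass. Of those 2, Cd59a had 0 UMIs in both classes and could not pass, and Cd55 had 6 UMIs in Ly6c-low-like and 12 in Ly6c-high-like cells. C5ar1 was higher by 2.26 (SE 0.20, edgeR, adjusted p = 4.77e-17). C3 fell by 2.20 (SE 0.11, edgeR, adjusted p = 1.31e-31), Cfp fell by 2.00 (SE 0.15, edgeR, adjusted p = 8.60e-22), Cd93 fell by 3.48 (SE 0.23, edgeR, adjusted p = 6.54e-17) and Cfb fell by 2.60 (SE 0.47, edgeR, adjusted p = 4.19e-06). The median of the 7, which counts the fitted value of Cd59a without a UMI behind it, was -2.00, against -0.02 for all genes. Each of these directions was seen in 3 of 3 libraries, and the call of Cfb, on 13 UMIs in Ly6c-low-like and 124 in Ly6c-high-like cells, was lost with DESeq2 (log2 -3.00, adjusted p = 0.432). Without replicate 1, C5ar1 was at 1.65 and Cd93 at -2.56. C3ar1, with 0 UMIs in Ly6c-low-like and 14 in Ly6c-high-like cells, was at least 3.00-fold lower in Ly6c-low-like cells by the 3-count floor.

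Among the 12 other complement genes tested in the monocyte comparison, 4 were higher and 1 was lower, beside 14.9% and 18.0% of all genes. Cd59b, 1 of the 12, had 0 UMIs in both classes and could not pass. Itgax, the alpha chain of complement receptor 4, stood at 357 ± 18.0 CPM in Ly6c-low-like cells and had 23 UMIs in Ly6c-high-like cells (log2 6.16, SE 0.25, edgeR, adjusted p = 1.11e-22). Itgb2 (1.22, SE 0.18), C5ar2 (1.13, SE 0.31) and Calr (0.49, SE 0.13) were higher as well, and C1qbp was lower (-0.96, SE 0.28). Itgam, the alpha chain of complement receptor 3, had 639 ± 91.5 CPM in Ly6c-low-like and 648 ± 45.4 CPM in Ly6c-high-like cells (SD, n = 3 each), a difference that did not pass (log2 0.01, SE 0.12, edgeR, adjusted p = 0.971). Without replicate 1, which held 436 of the 597 Ly6c-low-like cells, C5ar2, Calr and C1qbp did not pass (edgeR, adjusted p = 0.144, 0.122 and 0.131).

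B-like cells differed from CD4 T-like cells at 55.7% of 10356 genes (31.3% higher and 24.4% lower). Of the 7 complement genes tested, 3 were higher and 4 did not pass. Cd55 was higher by 2.85 (SE 0.10, edgeR, adjusted p = 3.19e-44), Cd93 by 4.95 (SE 0.38, edgeR, adjusted p = 1.71e-15) and Cfp by 0.71 (SE 0.15, edgeR, adjusted p = 5.11e-05). The Cd93 difference was 5.25 without cells that had a platelet marker UMI. C5ar1 (0.24, SE 0.46), C3 (-0.13, SE 0.44) and Cfb did not pass, and Cd59a missed the threshold (edgeR, adjusted p = 0.0597) on 38 UMIs in B-like and 2 in CD4 T-like cells, a ratio of pooled levels of 5.05 (exact 95% interval 1.30 to 43.2).

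Of the 12 other complement genes tested between B-like and CD4 T-like cells, 4 were higher and 2 lower, beside 31.3% and 24.4% of all genes. Cr2 was higher by 5.52 (SE 0.25, edgeR, adjusted p = 6.10e-18), with 138 ± 19.3 CPM in B-like cells (SD, n = 3), and was at 4.67 without replicate 1. C5ar2 had 124 UMIs in B-like cells, against 2 in CD4 T-like cells (ratio of pooled levels 16.5, exact 95% interval 4.46 to 137). Calr was higher by 0.49 (SE 0.10) and Cr1l by 0.35 (SE 0.12), the call of Cr1l being lost with plain totals (0.17, edgeR, adjusted p = 0.247) and without each of replicates 1, 2 and 3 (edgeR, adjusted p = 0.158, 0.0508 and 0.0670). Itgb2 (-1.60, SE 0.18) and C1qbp (-0.52, SE 0.12) were lower. Outside these comparisons, clusterin Clu, an inhibitor of the terminal complex, stood at 3251 ± 892 CPM in platelet-like barcodes (SD, n = 3), and 12 of the 40 genes, among them Hc (complement C5), C6, C9, Mbl1, Mbl2, Cfd and Vsig4, had 0 UMIs in all barcodes.

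Over the 7 tested of the 10 genes, 56 pairs of neighbouring classes in the order of levels were tested, 22 passed with TMM scaling, and 15 of those also passed with plain totals. Some of these pairs, for Cfb and Cd59a, had 0 UMIs in both classes and could not pass. Over all genes and all pairs of classes of that fit, 53.1% of tests passed. That share is not of a like set, since neighbours are by choice the classes closest in these levels. Among 9421 genes with a mean of 20 CPM or more in a class, those most like one of the 7 over the 27 sums of class and library were, for C5ar1, Alox5 (Pearson r = 0.952 of log2(CPM + 1)), Il1b and Mapk13; for C3, Tgfbi (0.975), Lrrc25 and Klra2; and for Cfp, Bst1 (0.937), Hp and Sgms2. For Cd55 they were Bcl7a (0.925), Aff3 and Hook1, for Cd93 Ptprj (0.884), Aldh2 and Pla2g4a, for Cd59a Trim58 (0.956), Gclm and Nadk2, and for Cfb Met (0.872), Clec10a and Kcne3. These values describe the order of classes, since the 27 sums share 3 libraries and 9 classes.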

How the data were processed

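Single-cell counts were analysed from 3 libraries of mouse blood leukocytes. The authors deposited unique molecular identifier counts per gene and barcode, made with Cell Ranger 7.1.0, per the file headers. Which probe set and genome build served is not given in the sources used here. All columns mapped to a library. Barcodes were named by how many markers of a lineage they held, at least 3 to 6 by lineage, and barcodes reaching several lineages were left out in place of a doublet caller. Counts were summed per class and library and tested with edgeR 4.0.16 (limma 3.58.1, R 4.3.3): filterByExpr, TMM, library as a block, the quasi-likelihood test and Benjamini-Hochberg adjustment over all genes, at 0.05. The block is by design, since the classes come from the same libraries. The fit held 9 classes with 20 or more cells in every library, and an added fit held 11. The code was tested on simulated sums of 2 classes at a time, and not on a fit of 9 or 11. For the 3 main comparisons it recovered 50 of 93, 43 of 100 and 50 of 100 genes changed 2-fold. At 4-fold it recovered 99 of 99, 96 of 99 and 100 of 100. Calls among unchanged genes were 8, 9 and 3. The simulated spread was a fixed setting and not the spread of the fit (common dispersion 0.00415), and few genes were changed. These rates are therefore a check of the code and not estimates for the data. DESeq2 1.42.0 was an alternative. Shares, thinning and figures used Python 3.11.15, numpy 2.4.6, scipy 1.17.1, pandas 2.3.3 and matplotlib 3.10.9.

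The 10 genes, the 40 other complement genes and the markers were chosen with earlier results of these data known, and the marker minimums were set after seeing the data. Named from the 40 were those with a mean of 10 CPM or more in a class; Cd55b, C1qc and the genes at 0 were named after their values were seen, and 1 result is not reported here. Similar genes were the 3 most correlated with each gene that had 50 or more UMIs, among genes with a mean of 20 CPM or more in a class. Intervals are exact at 95%, and these and the floor of 3 counts cover counting error only.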

Additional observations from a re-analysis of the deposited data

How the results depend on the processing

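Over 14 alternative settings, 285 of 291 log2 differences of the 7 tested of the 10 genes, in the comparisons within phagocytes and of B-like against CD4 T-like cells, kept their side of the threshold, and 5 lost and 1 gained a call. None that passed in the main or the alternative fit reversed its direction. The direction of differences that passed in neither was not counted. Cd59a between Ly6c-low-like and Ly6c-high-like cells is among the 291, and with 0 UMIs in both classes it could not pass in the main fit. Among neighbouring classes, differences that passed under TMM or plain totals turned their sign between these for Cd93 between Ly6c-high-like and platelet-like (-1.25 with TMM, 0.18 with plain totals), Cfp between NK-like and erythroid-like (-2.67 and 1.25), Cd55 between NK-like and platelet-like (-0.37 and 1.39) and Cd59a between platelet-like and erythroid-like barcodes (-0.25 and 1.92), and plain totals kept 15 of 22 calls between neighbouring classes; calls of Cr2, Cr1l, C5ar2, Calr and C1qbp were lost in some alternatives. Cd55 between neutrophil-like and Ly6c-high-like cells was lost in 4 (log2 0.54 to 1.00) and Cfb between Ly6c-low-like and Ly6c-high-like cells in 1 (DESeq2, -3.00); the cause was not tested. Without the replicate block, Cd59a between B-like and CD4 T-like cells passed (2.24, edgeR, adjusted p = 0.0445), and no other call among the 10 genes changed; the counts were 3512 higher and 3817 lower genes for neutrophil-like against Ly6c-high-like, 1415 and 1689 for Ly6c-low-like against Ly6c-high-like, and 2822 and 2320 for B-like against CD4 T-like cells. Between neutrophil-like and Ly6c-high-like cells, plain totals gave 1681 higher and 6393 lower genes, RLE factors 2424 and 5297, and DESeq2 2306 and 5168, against 3603 and 3896 with TMM. Between B-like and CD4 T-like cells, plain totals gave 2193 higher and 3595 lower and RLE factors 2902 and 3087, against 3241 and 2532. Leaving out 1 replicate gave 2896 to 3506 higher and 3407 to 3833 lower genes for neutrophil-like against Ly6c-high-like, 879 to 1311 and 1146 to 1691 for Ly6c-low-like against Ly6c-high-like (lowest without replicate 1), and 2314 to 2739 and 2217 to 2789 for B-like against CD4 T-like cells. Of the other complement genes, 2 to 4 were higher and 1 to 2 lower in Ly6c-low-like cells with 1 replicate left out. In the same comparison 2 were lower without the platelet-like and erythroid-like classes, an alternative chosen after seeing the data, beside 2022 of all 10571 genes. Without a filter on low counts, 5, 3 and 4 of the other complement genes were lower in neutrophil-like, Ly6c-low-like and B-like cells. Among all 14404 genes tested at that setting, 4036, 1952 and 3218 were lower in these comparisons. Thinned to 2000 UMIs, the share of cells with a UMI was 88.0% for C5ar1 in neutrophil-like, 73.7% for C3, 27.8% for Cd93 and 2.62% for Cfb in Ly6c-high-like, 58.6% for Cfp in dendritic-like, 77.5% for Cd55 and 0.00866% for C1qa in B-like, and 17.6% for Cd59a in platelet-like barcodes, for which only 75 were deep enough; with stricter marker calls, C3 was at 97.8%. Few UMIs limit C1qa (23 in all barcodes), C1qb (34), Cd59a (131) and Cfb (184).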

Other observations

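Pairs of complement genes were counted in the same cells of a class and set beside the number that independent draws within each library would give. Cfp and C5ar1 met in 1398 neutrophil-like cells, where 1386 would be met, and C3 and Cfp met in 336 Ly6c-high-like cells, where 334 would be met. Nearly all cells of these classes had C5ar1 (2484 of 2647) or C3 (505 of 532), which left little room for other numbers. Other pairs lay further apart: Cd93 and Cr2 met in 141 B-like cells, where 184 would be met, Cfp and C5ar1 met in 52 Ly6c-low-like cells, where 42.5 would be met, and C1qb and C1qc met in 2 B-like cells, where 0.00634 would be met. Over all barcodes C5ar1 and C5ar2 met in 1677 cells, where 328 would be met; both genes were highest in neutrophil-like cells. These are descriptions with no test, since cells of a library are not replicates.

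Among barcodes with markers of several lineages, 12 of 1203 held 3 or more basophil markers, and 9 of those 12 had a C3ar1 UMI.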
